A study of Caenorhabditis elegans with 12 samples.

Results

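A set of 10 cuticle collagen genes of Caenorhabditis elegans, named for mutants with an altered body shape, a rolling movement or blisters, was followed in whole mid L4 larvae of 4 strains. They are the strut collagens bli-1, bli-2 and bli-6, the collagens rol-6, sqt-1, sqt-2 and sqt-3, and the collagens dpy-5, dpy-13 and dpy-17. Members were taken by exact gene name, and all 10 were found among the 46711 entries held by both deposited count tables. The study asked what base pairing through the 3′ part of let-7, a microRNA that times larval development, contributes in the animal, using substitutions called U13A and U18A. For U13A, control animals were DG3913, with lin-41(tn1541), known as a GFP-tagged allele, and mutants were VT3878, with let-7(ma432) and lin-41(tn1541ma480). The U13A mutant therefore differs from its control in lin-41 as well as in let-7, and its label describes it as a mutant in which lin-41 downstream is excluded. For U18A, control animals were VT1367, with maIs105, known as a col-19 reporter transgene, and mutants were VT3797, with maIs105 together with let-7(ma435). Both U13A groups thus carry tn1541, and both U18A groups carry the transgene. Animals were kept at 20 °C until 45 h of feeding, and each group has 3 libraries, lettered A to C.

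The cuticle of C. elegans is an extracellular coat made by the epidermis and replaced at each moult. It is built mostly of small collagens, which are encoded by a large gene family, are trimmed and crosslinked outside the cell and are transcribed in waves within each larval stage. Struts are columns that join the inner and outer layers of the adult cuticle, and their loss gives fluid-filled blisters. Mutations in rol-6 and sqt-1 can twist the body so that the animal rolls, and loss of the dpy collagens gives short, fat animals. L4 is the stage in which the adult cuticle is prepared. In the pathway that times this step let-7 represses lin-41, and LIN-41 in turn restrains lin-29, a regulator of the adult epidermis.

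Library totals lay between 16659340 and 21414080 counts for U13A and between 6107652 and 9607239 for U18A. In the U13A libraries the 3 most abundant entries (ZC155.8, R144.15 and B0285.12) took 65.6% to 76.8% of the counts, and the same entries took 0.527% to 1.01% in the U18A libraries. Levels are given in CPM, the usual depth-scaled count, with library sizes scaled by TMM within a table, and they are not compared across the tables. U13A control C stood apart, with 8.85% of its counts in protein-coding genes where the other 5 libraries of its table had 16.6% to 18.8%. Markers of epidermis, body wall muscle, pharynx, intestine, neurons and germline were all counted in every library, as were 2 of 4 seam cell markers and 31 of 35 sperm markers. No label says that the libraries of a group came from separate cultures, so p-values measure the spread between these libraries, which may be technical.

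The members lie on 5 chromosomes of the WBcel235 assembly and share a compact gene structure. bli-1 (chromosome II, 10708960 to 10712156), bli-2 (II, 5651394 to 5652434), rol-6 (II, 8733050 to 8734239), sqt-1 (II, 11336693 to 11337837) and sqt-2 (II, 23325 to 24458) are on chromosome II. bli-6 (IV, 6377065 to 6378168) and dpy-13 (IV, 4235614 to 4236710) are on chromosome IV, dpy-17 (III, 5107330 to 5108492) is on III, sqt-3 (V, 12352745 to 12354320) is on V and dpy-5 (I, 5432197 to 5433051) is on I. bli-1 stands out in size, with a predicted protein of 948 residues encoded in 5 exons. The other 9 members encode 284 to 352 residues, close to the median of 304 residues over 155 col genes. Exons of bli-1 overlap the antisense gene dph-2 by 7 bases, and bli-2 overlaps the antisense gene zyg-1 with 0 shared exon bases. Per library dph-2 had 84 to 280 counts and zyg-1 had 35 to 216, and the use of strand in counting is not given. sqt-3 overlaps the antisense RNA F23H12.13 by 144 bases, which had 0 to 2 counts in any library. Near-identical collagen genes may share reads, so the counts of single members are uncertain to that degree.

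Levels were ordered within each group by RPKM, the CPM per kilobase of exon. In the U18A controls bli-6 was highest at 523 ± 61.0 RPKM (SD, n = 3). The next were sqt-3 at 284 ± 64.0, dpy-13 at 264 ± 47.0, sqt-2 at 178 ± 37.6 and dpy-5 at 110 ± 23.6 RPKM. Then came rol-6 at 65.7 ± 20.4, bli-2 at 61.8 ± 17.4, sqt-1 at 52.8 ± 17.02 and bli-1 at 38.5 ± 11.1 RPKM. dpy-17 was lowest, at 4.12 ± 0.695 RPKM. Among neighbours in this order, the ranges of sqt-3 and dpy-13 overlapped, as did those of rol-6 and bli-2, of bli-2 and sqt-1, and of sqt-1 and bli-1. The U18A mutants had the same order. There the ranges of sqt-1 and bli-1 no longer overlapped.

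In the U13A controls dpy-13 was highest, at 49.9 ± 3.68 RPKM, with a range that overlapped that of bli-6 at 41.9 ± 5.81 RPKM. sqt-3 followed at 20.3 ± 4.02, dpy-5 at 17.3 ± 2.37 and sqt-2 at 15.2 ± 5.11 RPKM, and neighbours among these 3 overlapped in range. rol-6 stood at 6.28 ± 3.43, sqt-1 at 3.28 ± 0.969 and bli-2 at 3.18 ± 0.219 RPKM, while dpy-17 at 0.814 ± 0.0443 and bli-1 at 0.757 ± 0.121 RPKM were lowest. Here rol-6 and sqt-1, sqt-1 and bli-2, and dpy-17 and bli-1 did not differ beyond their ranges. bli-6 was thus far above the other strut collagens in the controls of both tables. In the U13A mutants bli-6 took the third place, at 15.7 ± 2.59 RPKM, behind dpy-13 at 25.5 ± 7.42 and sqt-3 at 21.9 ± 5.35 RPKM. The ranges of neighbours among these 3 overlapped.

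**Figure D1:**
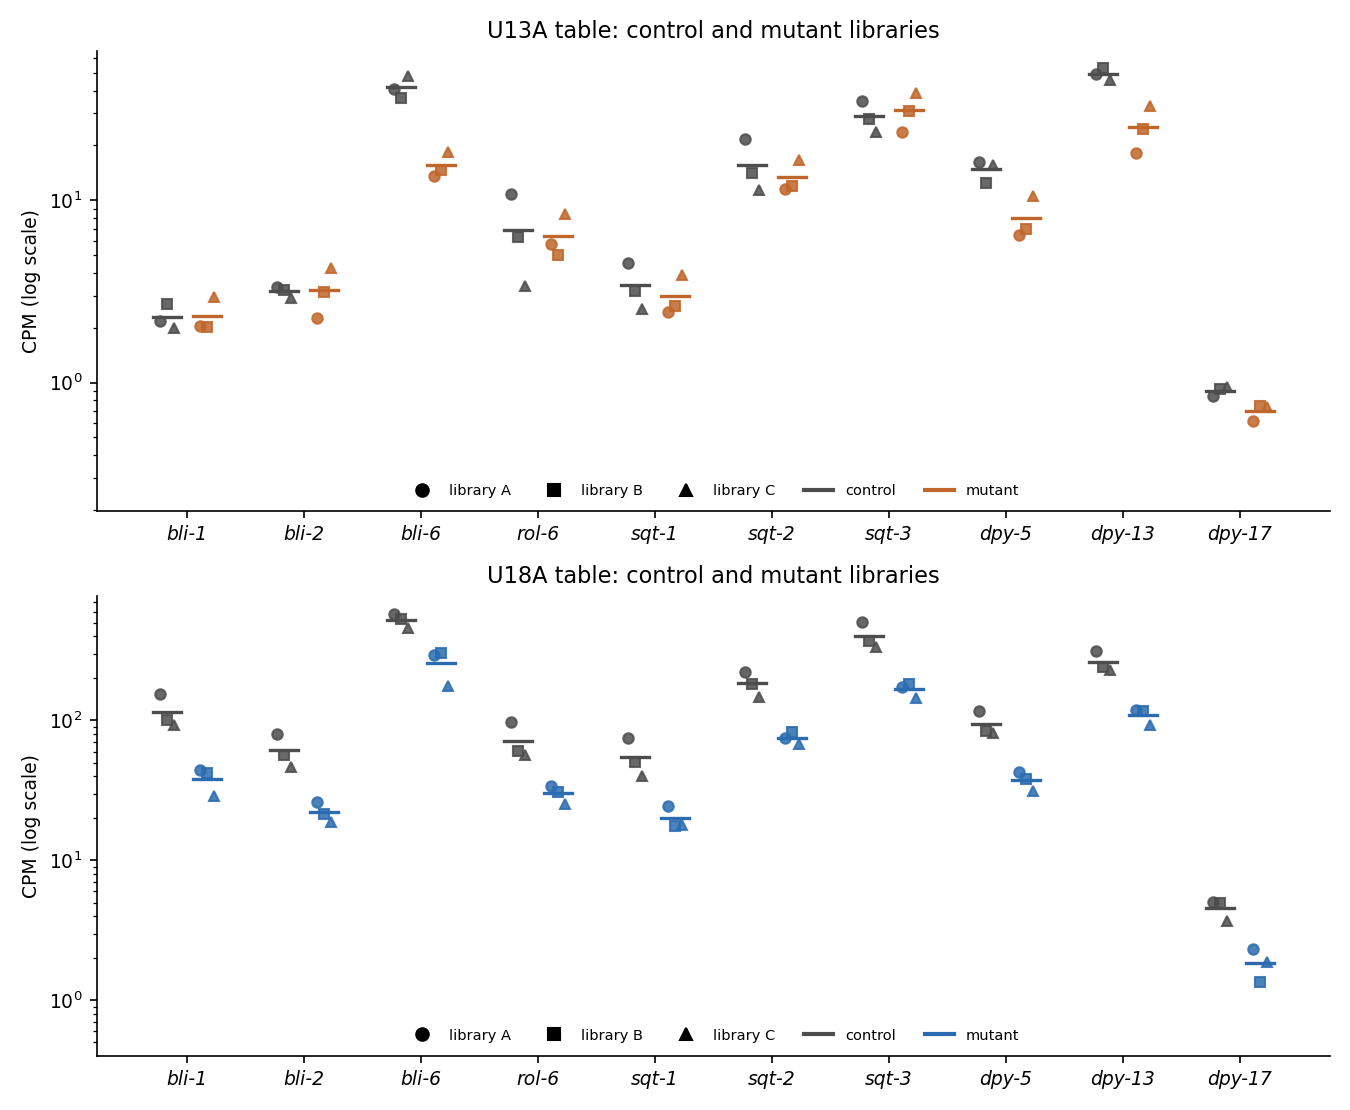
CPM (log scale) of each gene in every library, U13A table above and U18A table below, with controls in grey, mutants in colour, marker shapes for libraries A to C and a bar for the group mean. All U18A mutant libraries lie below all U18A controls for the 10 genes, while in the U13A table this holds for bli-6, dpy-5, dpy-13 and dpy-17.

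The U18A contrast asked how the members change when let-7 carries the U18A substitution. All 10 fell in the mutant, by 2.03-fold for bli-6 to 3.04-fold for bli-1 (edgeR quasi-likelihood test, Benjamini-Hochberg adjusted p under 0.05). Over all 12689 genes tested 8.16% passed in either direction, 5.88% as lower and 2.29% as higher. Every mutant library was below every control library for each of the 10 members, while this held for 14.8% of all genes tested and the reverse for 12.3%. The median log2 fold change of the members was -1.28, against 0.01 over all genes. In whole-animal RNA, fewer cells that make a transcript and less of it per cell cannot be told apart. All groups were taken at 45 h of feeding, and differences in stage within L4 were not tested.

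Among the strut collagens, bli-1 had 154, 101 and 92.3 CPM in libraries A to C of the U18A controls and 44.5, 41.8 and 28.7 CPM in those of the mutants. This was the largest change of the set, a log2 fold change of -1.61 (adjusted p by edgeR 0.0252, SE 0.27). bli-2 had 80.6, 56.8 and 46.9 CPM in the controls and 26.1, 21.6 and 18.9 CPM in the mutants, a log2 fold change of -1.47 (adjusted p by edgeR 0.005, SE 0.22). The groups stood apart for both genes, with control A highest. bli-6, the most abundant member, had 577, 529 and 456 CPM in the controls and 293, 302 and 176 CPM in the mutants. Its change was the smallest of the set, at -1.02 on the log2 scale (adjusted p by edgeR 0.0322, SE 0.21), and mutant C lay well below the other 2 mutants.

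rol-6 and sqt-1 encode collagens in which dominant mutations make animals roll. rol-6 had 97.0, 60.4 and 57.1 CPM in the U18A controls and 34.2, 30.96 and 25.3 CPM in the mutants, a log2 fold change of -1.25 (adjusted p by edgeR 0.022, SE 0.23). sqt-1 had 74.8, 50.3 and 40.2 CPM in the controls and 24.4, 17.7 and 18.0 CPM in the mutants, a log2 fold change of -1.45 (adjusted p by edgeR 0.0225, SE 0.27). The controls differed 1.70-fold between libraries for rol-6 and 1.86-fold for sqt-1, though each control value exceeded each mutant value. sqt-2, another collagen of this mutant class, had 224, 181 and 147 CPM in the controls and 74.8, 82.3 and 68.4 CPM in the mutants. It fell by 1.29 on the log2 scale (adjusted p by edgeR 0.00025, SE 0.14), and its mutant libraries were the closest together among the members, with a coefficient of variation of 9.28%.

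sqt-3 and dpy-17 encode collagens that genetics links to each other and to the procollagen protease DPY-31. sqt-3 had 507, 371 and 334 CPM in the U18A controls and 174, 183 and 145 CPM in the mutants, a log2 fold change of -1.27 (adjusted p by edgeR 0.000739, SE 0.15). dpy-17 had 34, 32 and 35 counts in the controls and 16, 8 and 18 in the mutants, which is 5.08, 4.97 and 3.69 CPM against 2.31, 1.36 and 1.87 CPM. Its log2 fold change was -1.26 (adjusted p by edgeR 0.00645, SE 0.27). The pair thus fell by like amounts from levels far apart, and the values of dpy-17 rest on few counts. The like falls are not particular to this pair, as all 10 members lay between -1.61 and -1.02.

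Loss of dpy-5 or dpy-13 shortens the body. dpy-5 had 118, 84.1 and 81.4 CPM in the U18A controls and 42.9, 38.1 and 31.2 CPM in the mutants. Its log2 fold change was -1.34 (adjusted p by edgeR 0.000544, SE 0.16). dpy-13 had 315, 241 and 228 CPM in the controls and 119.4, 116 and 93.6 CPM in the mutants. It had the smallest p of the set, with a log2 fold change of -1.26 (adjusted p by edgeR 8.09e-05, SE 0.13). For dpy-13 the lowest control was 1.91 times the highest mutant, a gap that was wider only for bli-1 (2.08 times).

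Libraries differed within the groups in the same way for nearly all members. U18A control A was highest among the controls for 10 of 10 members and control C was lowest for 10 of 10, while these libraries held those places for 37.0% and 32.5% of all genes tested. Mutant C was lowest among the mutants for 8 of 10 members, against 34.8% of all genes. Without mutant C 5 members passed the edgeR threshold, and the calls of bli-1, bli-2, rol-6, sqt-1 and sqt-3 were lost (adjusted p 0.0629 to 0.204). Without control B the calls of bli-1, bli-6 and sqt-1 were lost (adjusted p 0.0584 to 0.0888), without mutant A those of bli-6 and rol-6 (0.0645 and 0.0568), and without control A that of bli-6 (0.107). The call of rol-6 was also lost with all 12 libraries in 1 fit (adjusted p 0.0877). The calls of sqt-2, dpy-5, dpy-13 and dpy-17 held in each of the 14 alternatives run at the same threshold. The summed level of 4 epidermal markers without the collagen dpy-7 was 42.8 to 48.5 CPM in the U18A controls and 38.4 to 39.3 CPM in the mutants. Of the 5 epidermal markers che-14, a gene for apical secretion, with a log2 fold change of -0.76 (adjusted p by edgeR 0.00186, SE 0.14), and dpy-7 fell, and elt-1, elt-3 and nhr-25 did not pass. The summed level of the seam cell markers was 18.5 to 20.0 CPM in the controls and 20.8 to 24.5 CPM in the mutants, that of 4 intestinal markers 1051 to 1097 and 1150 to 1214 CPM, and that of 4 neuronal markers 56.6 to 65.1 and 67.1 to 71.4 CPM. The part of these markers in the result was not tested.

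**Figure D2:**
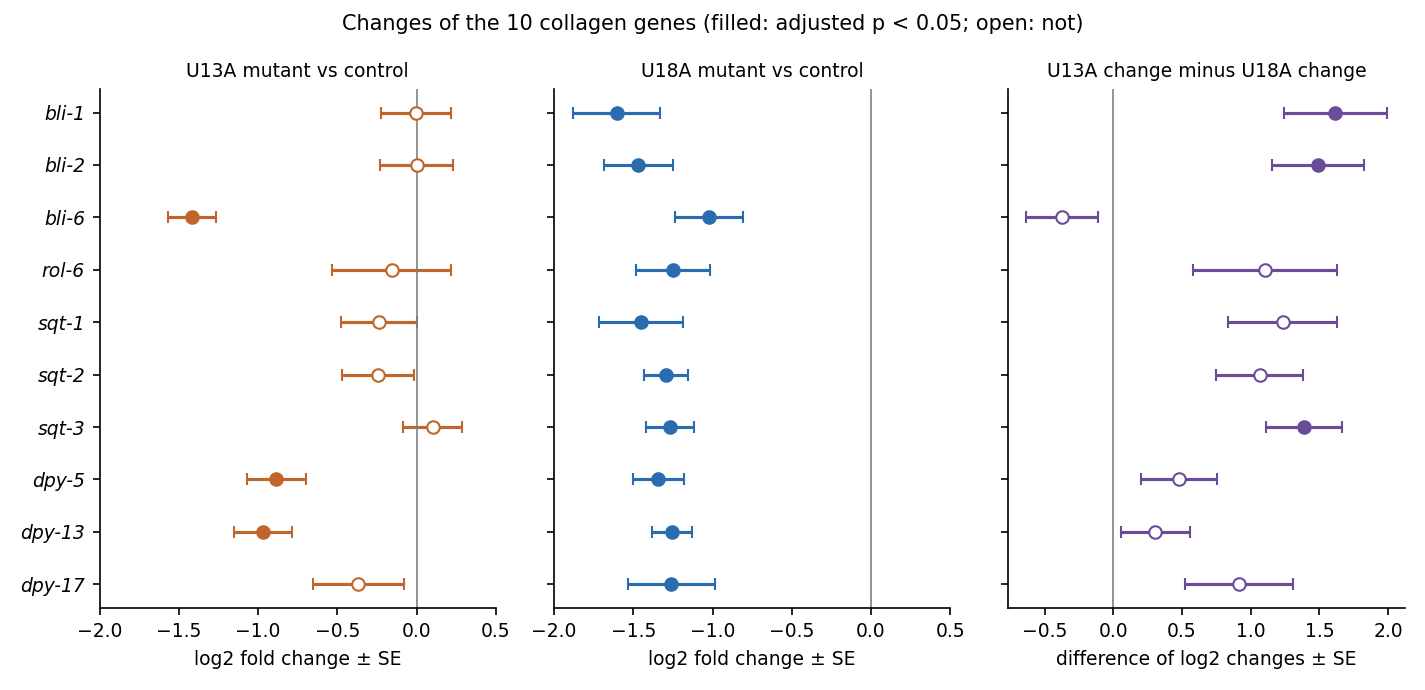
Log2 fold change of each gene (mutant against control, ± SE) for U13A and U18A, and the difference of these changes, with filled points past the adjusted p threshold. All 10 points are filled for U18A, those of bli-6, dpy-5 and dpy-13 for U13A, and those of bli-1, bli-2 and sqt-3 for the difference.

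The U13A contrast, in which the mutant also carries a further change in lin-41, gave a split picture. bli-6, dpy-5 and dpy-13 fell, the other 7 members did not pass, and none rose. Over all 12044 genes tested 1.55% passed in either direction, 0.822% as lower and 0.731% as higher. Every mutant library was below every control library for 4 of the 10 members, the 3 called and dpy-17, while this held for 9.26% of all genes and the reverse for 9.8%. The median log2 fold change of the members was -0.24, against -0.01 over all genes. The summed level of the 4 epidermal markers other than dpy-7 was 11.04 to 12.7 CPM in the controls and 11.4 to 12.4 CPM in the mutants. Markers of seam cells (4.81 to 6.04 and 7.51 to 9.17 CPM), sperm (417 to 674 and 713 to 832 CPM) and body wall muscle (996 to 1441 and 1454 to 1462 CPM) were higher in all mutants than in all controls, and their part in the result was not tested.

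bli-6 had 40.8, 36.5 and 47.9 CPM in libraries A to C of the U13A controls and 13.6, 14.7 and 18.5 CPM in those of the mutants. It fell 2.67-fold, a log2 fold change of -1.42 (adjusted p by edgeR 0.000274, SE 0.15), and had the 14th smallest p of all genes tested. This call held in each of 14 alternatives at the same threshold. The other strut collagens did not pass. bli-1 had 46, 70 and 21 counts in the controls and 46, 35 and 56 in the mutants, or 2.17, 2.69 and 1.98 against 2.03, 2.01 and 2.95 CPM. Its log2 fold change was 0.00 (adjusted p by edgeR 0.998, SE 0.22). bli-2 had 3.35, 3.22 and 2.92 CPM in the controls and 2.25, 3.15 and 4.27 CPM in the mutants, a log2 fold change of 0.00 (adjusted p by edgeR 0.999, SE 0.23). For both genes the groups overlapped.

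dpy-13 had 49.4, 52.9 and 45.7 CPM in the U13A controls and 18.2, 24.8 and 32.8 CPM in the mutants. The groups did not overlap, and the log2 fold change was -0.97 (adjusted p by edgeR 0.0191, SE 0.18). dpy-5 had 16.2, 12.47 and 15.7 CPM in the controls and 6.45, 6.94 and 10.5 CPM in the mutants, a log2 fold change of -0.89 (adjusted p by edgeR 0.0335, SE 0.19). Its lowest control was 1.18 times its highest mutant. Both calls depended on the libraries used: leaving out 1 library lost the call of dpy-13 in 5 of 6 fits (adjusted p 0.0507 to 0.147) and that of dpy-5 in 4 of 6 (0.06 to 0.252). Control C, the library that stood apart, was among them, with adjusted p 0.11 for dpy-13 and 0.06 for dpy-5 without it.

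For the other members the U13A groups overlapped, except for dpy-17. rol-6 had 10.8, 6.33 and 3.40 CPM in the controls and 5.74, 4.99 and 8.38 CPM in the mutants, a log2 fold change of -0.16 (adjusted p by edgeR 0.904, SE 0.38). Its controls differed 3.18-fold between libraries, the widest spread of any member in any group. sqt-1 had 4.53, 3.18 and 2.55 CPM in the controls and 2.43, 2.64 and 3.90 CPM in the mutants, and sqt-2 had 21.6, 14.04 and 11.4 against 11.6, 12.04 and 16.6 CPM. The log2 fold changes were -0.24 for each (SE 0.24 and 0.23, adjusted p by edgeR 0.74 and 0.715). For these 3 genes control A was the highest control, and without it each estimate turned positive, at 0.31 for rol-6, 0.020 for sqt-1 and 0.059 for sqt-2.

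sqt-3 had 35.1, 27.8 and 23.8 CPM in the U13A controls and 23.8, 30.7 and 39.0 CPM in the mutants, a log2 fold change of 0.10 (adjusted p by edgeR 0.868, SE 0.19). Its partner dpy-17 had 18, 24 and 10 counts in the controls and 14, 13 and 14 in the mutants, or 0.849, 0.921 and 0.944 against 0.618, 0.745 and 0.738 CPM. The log2 fold change of dpy-17 was -0.37 (adjusted p by edgeR 0.651, SE 0.29). Its groups did not overlap in CPM, though its counts did, and the difference did not pass. Control C had the fewest counts of dpy-17 but its highest CPM, with a TMM factor of 0.577. Mutant C was the highest mutant library for 9 of the 10 members, while it was highest for 31.9% of all genes tested.

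The changes in the contrasts were then compared directly, in 1 fit to all 12 libraries. The difference passed the threshold for 3 of the 10 members, bli-1, bli-2 and sqt-3, and its sign was positive (U13A higher) for each. Among the 14155 genes tested 1.96% passed in either direction, 1.62% with U13A above U18A and 0.332% with it below. The difference on the log2 scale was 1.62 (adjusted p by edgeR 0.0417, SE 0.37) for bli-1, 1.49 (SE 0.33, adjusted p 0.0286) for bli-2 and 1.39 (SE 0.28, adjusted p 0.0151) for sqt-3. For each of these genes the U13A groups overlapped while all 3 U18A mutants were below all 3 controls. sqt-1, with a difference of 1.23 (adjusted p by edgeR 0.188, SE 0.40), and sqt-2, with 1.07 (SE 0.32, adjusted p 0.145), did not pass here, though both did with DESeq2 and without a count filter. rol-6 (1.10, adjusted p by edgeR 0.456, SE 0.53) and dpy-17 (0.92, SE 0.39, adjusted p 0.329) did not pass either.

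The 3 members called in both contrasts were those with the smallest differences between them. The calls and the differences come from the same values, and all 10 members fell for U18A, so this is no separate result. bli-6 had a difference of -0.37 (adjusted p by edgeR 0.639, SE 0.26), dpy-13 of 0.31 (SE 0.25, adjusted p 0.697) and dpy-5 of 0.48 (SE 0.27, adjusted p 0.537). These 3 are all of the members called for U13A and 3 of the 10 called for U18A. bli-6 was also the single member whose estimate was lower for U13A than for U18A. The calls of the difference rested on few libraries: none of the 10 passed edgeR's threshold without U13A control B, U13A control C or U18A mutant C, where 6 members had an unadjusted p under 0.05 each time, and 1 passed without U13A mutant B, U13A mutant C or U18A mutant B. The strain backgrounds and the lin-41 change differ between the contrasts and cannot be told apart from the position in let-7.

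**Figure D3:**
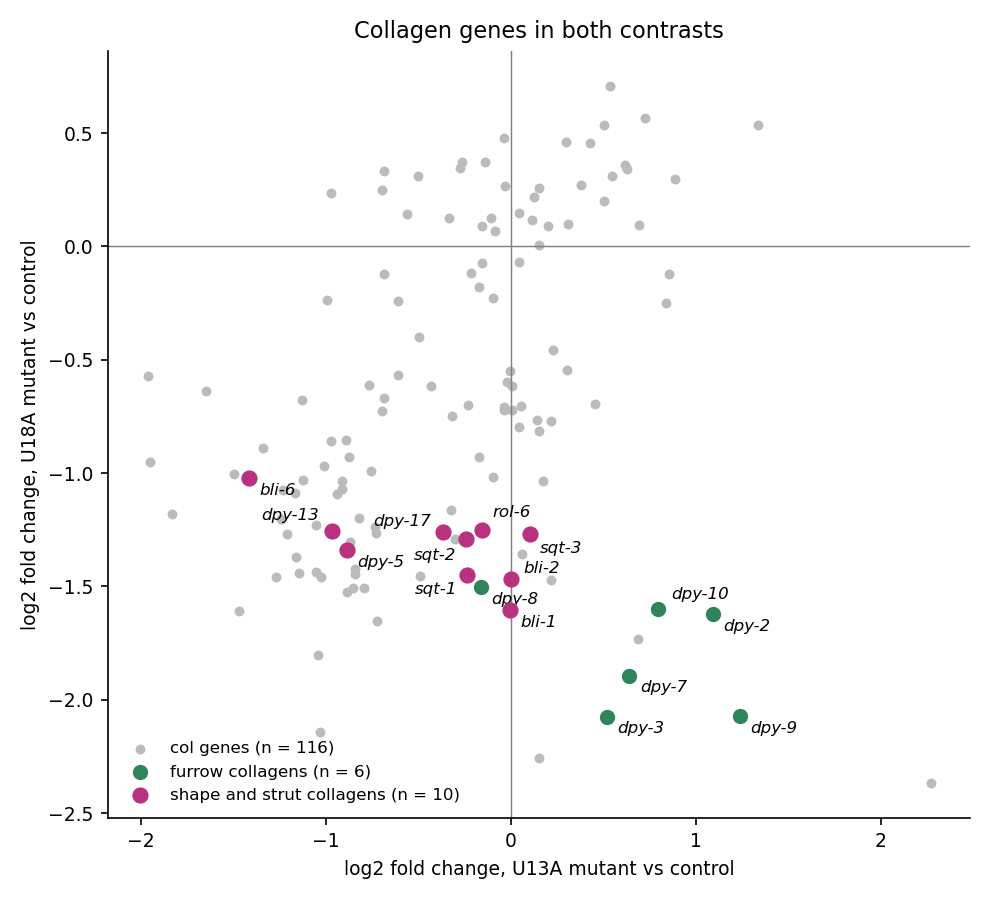
Log2 fold change in the U13A contrast (horizontal) against the U18A contrast (vertical) for the shape and strut collagens, the furrow collagens and the col genes tested in both. bli-6, dpy-5 and dpy-13 lie to the lower left, the other shape and strut collagens near 0 on the horizontal axis, and 5 of the 6 furrow collagens to the lower right.

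The make-up of the set was described by the share of each member in the summed RPKM of the 10 genes in a library, which does not depend on library totals. bli-6 took the largest share in every U18A library, 30.4% to 35.2% in the controls and 32.2% to 40.1% in the mutants. sqt-3 took 17.3% to 18.7% and 16.2% to 18.7%, and dpy-13 took 16.1% to 17.3% and 15.5% to 17.3%. For 8 of the 10 genes the shares of the U18A groups overlapped, although the summed level was 1487 to 2151 CPM in the controls and 607 to 836 CPM in the mutants. The exceptions were bli-1, with 2.23% to 2.69% in the controls and 1.75% to 1.95% in the mutants, and bli-2, with 3.54% to 4.25% and 2.88% to 3.49%.

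For U13A the groups did not overlap in share for 7 of the 10 genes, while the summed level was 156 to 185 CPM in the controls and 86.7 to 138 CPM in the mutants. bli-6 took 23.5% to 32.0% in the controls and 14.9% to 17.4% in the mutants, and dpy-13 took 28.6% to 35.3% and 23.4% to 27.0%. Of those 7 genes, these had a lower share in the mutants. The share of sqt-3 was higher there, at 21.2% to 23.3% where the controls had 11.1% to 14.1%. bli-1 and bli-2 together had 2.34% to 2.72% in the controls and 3.74% to 4.22% in the mutants, and the shares of sqt-1 and sqt-2 were also higher. A gene that does not change gains share when others fall, so shares show unequal change and no more, and they were not tested. The shares of a library are tied to each other by their sum, so the 7 genes are not separate observations. Shares were taken within the 10 genes alone, so no figure over all genes stands beside this count.

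**Figure D4:**
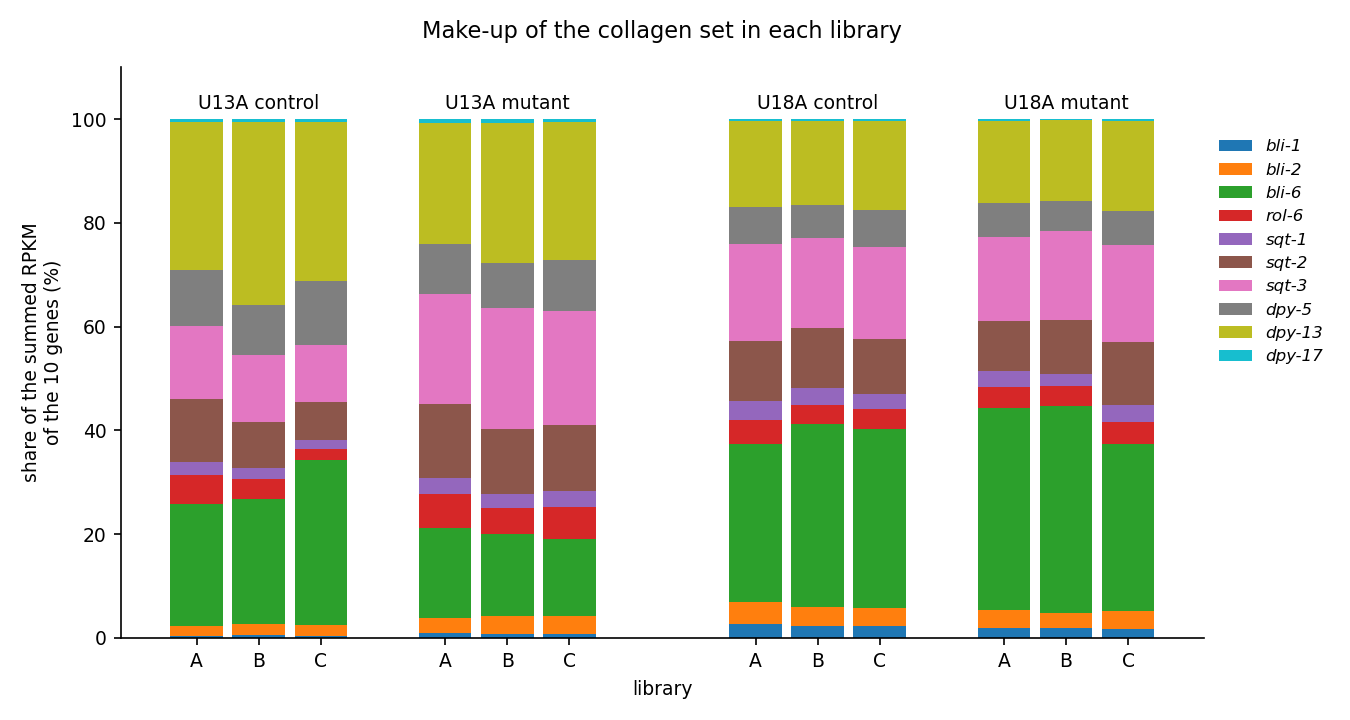
Share of each gene in the summed RPKM of the 10 genes (%), 1 bar per library, grouped by strain. The bli-6 segment is smaller and the sqt-3 segment larger in the U13A mutants than in their controls, while the U18A bars vary less, with bli-6 at 30.4% to 40.1%.

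Other genes of cuticle collagen biology were counted from lists of related genes. All 6 furrow collagens, which form the circular grooves of the cuticle, fell in the U18A mutant, with a median log2 fold change of -1.76 and with dpy-3 at -2.08 (adjusted p by edgeR 0.0059, SE 0.31) and dpy-9 at -2.07 (SE 0.30, adjusted p 0.00666). Without U18A mutant C none of the 6 passed edgeR's threshold, though all 6 had an unadjusted p under 0.05. In the U13A mutant 2 of the 6 rose, dpy-9 by 1.24 (adjusted p by edgeR 0.0168, SE 0.23) and dpy-2 by 1.09 (SE 0.23, adjusted p 0.0335), and neither passed without mutant A, mutant B or mutant C. The difference between the contrasts passed for 5 of the 6 furrow collagens, up to 3.33 on the log2 scale for dpy-9 (adjusted p by edgeR 0.00039, SE 0.40), and for 3 of the 10 shape and strut collagens. For the furrow collagens 2 passed without U13A control C or U18A mutant C, and 3 without U13A control B or U13A mutant C.

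Of 6 further collagens named for body shape, 5 were tested, and all 5 fell in the U18A mutant, among them dpy-4 by 1.37 (adjusted p by edgeR 2.77e-05, SE 0.12) and lon-3, whose loss lengthens the body, by 1.34 (SE 0.16, adjusted p 0.00042) on the log2 scale. Without the count filter 2 of them passed, and without U18A control B 3. In the U13A mutant rol-1 fell, with a log2 fold change of -1.21 (adjusted p by edgeR 0.0183, SE 0.22), and the other 4 did not pass. rol-1 did not pass without control A, control C, mutant A or mutant B. Among 120 col genes tested for U18A 54 fell, led by col-175 (log2 fold change -1.44, SE 0.12, adjusted p by edgeR 2.23e-06) and col-73 (-1.07, SE 0.10, 4.71e-06), and 11 rose, led by col-119 (0.57, SE 0.10, 0.00117) and col-80 (0.54, SE 0.10, 0.00248). Among 116 tested for U13A 25 fell, led by col-137 and col-120 (-1.96 and -1.95, SE 0.16 and 0.17, adjusted p by edgeR 7e-05 each), and 6 rose, led by col-176 and col-143 (2.27 and 1.33, SE 0.20 and 0.21, adjusted p 7e-05 and 0.00917). Without U13A control A, mutant A or mutant B 8, 5 and 6 col genes passed. Their medians were -0.70 for U18A, where each of the 10 members lay lower, and -0.29 for U13A, where the members lay on both sides, from -1.42 for bli-6 to 0.10 for sqt-3.

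Of 13 genes for enzymes and partners that process or crosslink collagens, 12 were tested. In the U18A mutant 5 fell, bli-5, dpy-11, dpy-18, pdi-2 and phy-2, with dpy-18, a subunit of the prolyl 4-hydroxylase that modifies collagen chains, at -0.83 (adjusted p by edgeR 4.81e-05, SE 0.10) and dpy-11, a thioredoxin-like membrane protein, at -0.71 (SE 0.11, adjusted p 0.000974). The proteases bli-4 and dpy-31, which trim procollagens, did not pass, at -0.13 (SE 0.08) and -0.25 (SE 0.12). In the U13A mutant none of the 12 passed with edgeR or with DESeq2, and 4 had an unadjusted p under 0.05 with edgeR and 2 with DESeq2. Without U13A control C, the library that stood apart, 2 passed with edgeR, and 1 passed with all 12 libraries in 1 fit. col-19, a collagen of the adult cuticle, had log2 fold changes of 0.26 (adjusted p by edgeR 0.124, SE 0.10) for U18A and 0.15 (SE 0.14, adjusted p 0.708) for U13A and passed in neither. For U18A col-19 did pass in 1 of 6 fits that left out 1 library (adjusted p by edgeR 0.00493) and in 1 of 8 other alternatives. lin-29, a transcription factor needed for the adult epidermal programme, fell in the U18A mutant by 0.50 on the log2 scale (adjusted p by edgeR 0.0288, SE 0.14), a call lost in 5 of 6 fits that left out 1 library (adjusted p by edgeR 0.0539 to 0.106), with DESeq2 (adjusted p 0.114) and with all 12 libraries in 1 fit (0.111). In the U13A contrast the estimate for lin-29 was 0.33 (adjusted p by edgeR 0.564, SE 0.21), and the difference between the contrasts, 0.84 (SE 0.25, adjusted p 0.0875), did not pass. It did pass without the count filter (0.0212) and without U13A control A (0.0396). The medians and counts of these lists describe them and were not tested against other genes.

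**Figure D5:**
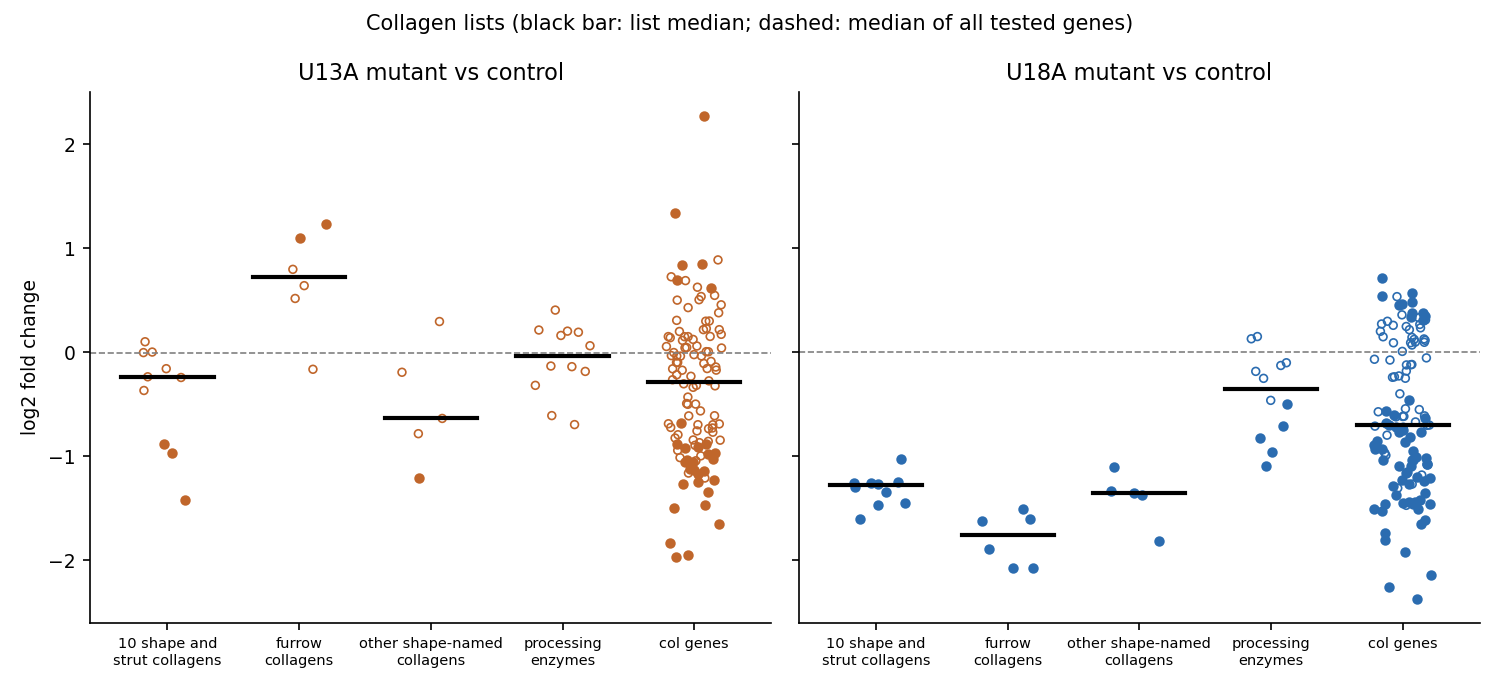
Log2 fold change of each tested gene by list, for U13A and U18A, with filled points past the adjusted p threshold, a black bar at the list median and a dashed line at the median of all tested genes. For U18A the medians are -1.28 for the 10 genes, -1.76 for furrow collagens and -0.70 for col genes, and for U13A the furrow list alone has a median well above the dashed line.

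Genes with the most similar pattern were sought among 5249 genes with a mean of at least 5 CPM in both tables. They were ranked by Pearson's r of log2 CPM, centred within each table, over the 12 libraries. Of the 10 members 6 were among these genes, while bli-1, bli-2, sqt-1 and dpy-17 had means under 5 CPM in the U13A table. For bli-1 the nearest of the genes searched was col-169 (r = 0.972), for bli-2 Y71G12B.25 (0.987), for bli-6 col-97 (0.981), for dpy-5 col-109 (0.993) and for dpy-13 col-77 (0.990). mlt-8, named for a moulting defect, was nearest to both sqt-1 (0.983) and sqt-3 (0.975), and the hedgehog-related grl-7 was nearest to sqt-2 (0.976). rol-6 was closest to the Argonaute gene alg-1 (0.951) and dpy-17 to spe-4 (0.920). With bli-2, which was not among the genes searched, r was higher still for bli-1 (0.976) and for dpy-17 (0.921). For the mean of the strut collagens the leading genes were col-157, col-63 and col-107 (0.985, 0.976 and 0.966), and for the mean of the other 7 members mlt-8, grl-7 and col-125 (0.980, 0.978 and 0.977). Among the members themselves r was highest between bli-1 and bli-2 (0.976) and lowest between rol-6 and bli-6 (0.486), and bli-6 was in each of the 7 weakest pairs. Centring within a table leaves the difference between its mutants and controls in place, so the U13A and U18A group differences both enter each of these values.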

How the data were processed

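RNA of whole mid L4 larvae was sequenced. The authors deposited raw counts of reads per gene in a table for each mutant with its control. The submitters' processing notes name cutadapt 1.9, Bowtie2 2.3.4.3 and featureCounts of Subread 1.6.2, while build, annotation and use of strand are not given in the sources used here. Coordinates and lengths come from the WBcel235 annotation (Ensembl release 115).

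All genes kept by filterByExpr (minimum count 10, minimum total 15) were tested by edgeR 4.0.16 in R 4.3.3, with its 2-sided quasi-likelihood F test, TMM scaling and Benjamini-Hochberg adjustment at 0.05, and SE was taken as log2 fold change over the square root of F. Scripts were tested on simulated counts. Alternatives were DESeq2 1.42.0, RLE scaling, other count filters, leaving out the 10 top entries, a replicate block, all 12 libraries in 1 fit, a threshold of 0.01, longest transcript lengths for RPKM, and leaving out each library. Members and lists were chosen with earlier results of these data known. Named genes were the members, col-19, lin-29, up to 2 genes per list, contrast and direction by smallest p, and those nearest in pattern (pseudocount 1 CPM). Other list genes and markers were named after their values were seen.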

Additional observations from a re-analysis of the deposited data

Results flagged for a closer look

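The change in the U13A mutant differed from that in the U18A mutant, by a test of the difference itself over all 12 libraries, for 3 of the 10 members. The difference, U13A minus U18A on the log2 scale, was 1.62 for bli-1, 1.49 for bli-2 and 1.39 for sqt-3. All 3 were lower in the 3 U18A mutant libraries than in each U18A control, and the U13A groups overlapped. bli-1 and bli-2 had 21 to 84 counts per library in the U13A table. Among all 14155 genes tested for this difference, 1.96% passed in either direction. Leaving out 1 library lost the call of bli-1 in 8 of 12 fits, of bli-2 in 7 and of sqt-3 in 3. With U13A control B, U13A control C or U18A mutant C left out, 0 of the 10 members passed edgeR's threshold. In those fits 6 members had an unadjusted p under 0.05. No cause was tested.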

How the results depend on the processing

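With all libraries kept and the same threshold, 3 members passed for U13A under every alternative run, and 10 for U18A except with all 12 libraries in 1 fit (9). At an adjusted p under 0.01, 1, 6 and 0 members passed for U13A, U18A and the difference. When 1 library was left out the counts were 1 to 3, 5 to 10 and 0 to 4. For the difference 3 passed, 5 without the count filter and 5 with DESeq2. Same-lettered libraries had correlations of -0.05 to 0.15 between their deviations from the group means, and no label says whether a letter marks a shared culture or day, so the letters were not used as pairs. Not every library correlated best with its own letter. With the replicate block 3, 10 and 4 members passed, sqt-1 joining in the difference (adjusted p by edgeR 0.0236), and 393, 1429 and 310 of all genes. Over all genes, U13A calls went from 187 to 543 without the filter, 431 in 1 fit, 54 at 0.01 and 37 to 352 without 1 library. U18A calls went from 1036 to 507 at 0.01 and 548 to 1109 without 1 library, and calls of the difference from 277 to 473 without the filter, 144 at 0.01 and 176 to 342 without 1 library. Without the filter the col genes called went from 31 to 54 for U13A and from 14 to 33 for the difference, and the further shape-named collagens from 1 to 3 for U13A. At 0.01 the furrow collagens called went from 6 to 3 for U18A. The causes were not tested.

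No call changed sign. U13A estimates that did not pass crossed 0 as follows. bli-1 was 0.0046 without the filter, 0.0069 with DESeq2, 0.0064 in 1 fit and -0.20 to 0.15 without 1 library. bli-2 was -0.0050 without the 10 top entries, -0.042 with the replicate block, -0.0068 with protein-coding entries only (chosen after seeing the data) and -0.25 to 0.22 without 1 library. Without 1 library rol-6 ranged from -0.41 to 0.31, sqt-1 from -0.47 to 0.020, sqt-2 from -0.42 to 0.059 and sqt-3 from -0.089 to 0.27. The difference for col-19 ranged from -0.21 to 0.025. The order by RPKM was the same with longest transcript lengths. dpy-17 had the fewest counts of the members, 8 to 35 per library.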

Other observations

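Within-library ratios of RPKM, chosen after the values were seen, restate the levels of the strut collagens. They come from the same values as the changes given above, so they are no separate result. bli-6 stood at 56.8, 41.1 and 73.1 times the level of bli-1 in U13A controls A to C and at 20.2, 22.1 and 18.9 times in the mutants. In the U18A controls the ratio was 11.3, 15.8 and 14.9 and in the mutants 19.9, 21.8 and 18.5. The ratio was thus lower in each U13A mutant and higher in each U18A mutant than in the controls of its table. The ratio of dpy-13 to bli-1 shifted the same way in both tables. The ratio of bli-6 to bli-2 was 11.3 to 16.4 in U13A controls and 4.32 to 6.03 in U13A mutants. For U18A that ratio overlapped between the groups, at 7.14 to 9.71 in controls and 9.25 to 13.9 in mutants. The U13A ratios to bli-1 rest on 21 to 70 counts of bli-1 per library. Ratios are not compared across the tables, which were made separately. The ratio of bli-1 to bli-2 was 0.214, 0.275 and 0.224 for U13A controls, 0.298, 0.210 and 0.228 for U13A mutants, and 0.501 to 0.650 over the 6 U18A libraries.

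dpy-13 and dpy-5 had a ratio of 2.31 to 2.63 over the 6 U18A libraries and 2.44 to 3.67 over the 6 U13A libraries. rol-6 stood at 1.15 to 1.68 times sqt-1 in the U18A table and at 1.28 to 2.29 times in the U13A table. None of these ratios was tested.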
